A study of Mus musculus with 6 samples.

Results

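The genes followed here mark Schwann cells and peripheral nerve, and were measured in mouse aortic valves at postnatal day 2 (PND2) and at 4 months. They are Sox10, S100b, Ngfr, Gfra3, Mbp, Cnp, Prx and Ncam1. The members were the rows of the gene table whose gene name was on this list of 8, and all 8 were found among the 46983 genes of the table. All 8 passed the filter on low values, which kept 25903 genes. The libraries came from wild type C57BL/6J mice, 3 at each age, and each library pooled the valves of 5 to 6 animals, so a value stands for a pool and not for 1 mouse. The valves were taken with as little heart muscle as possible, and paired-end RNA-seq from a stranded library kit was summarised by the authors as RPKM (reads scaled to the exonic length of the gene and to the size of the library). The library totals recovered from the RPKM values ran from 23810507 to 38994657 reads.

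Schwann cells are neural crest derived glia that wrap or accompany the axons of peripheral nerves. Myelinating Schwann cells build a compact sheath around a large axon, whereas non-myelinating Schwann cells hold bundles of thin axons in pockets of cytoplasm, and autonomic nerve fibres of the heart are largely of the thin kind. Both kinds depend on the transcription factor Sox10, respond to neuregulin through Erbb receptors, and exchange survival factors of the neurotrophin and GDNF families with neurons. The heart valves also carry nerve fibres and, in mice, melanocytes, which come from the same lineage and also use Sox10.

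Of the 8 genes, Gfra3 and S100b rose between PND2 and 4 months and none fell (limma on log2(RPKM + 0.1), Benjamini-Hochberg adjusted over all genes tested, called at adjusted p below 0.05). Among all genes tested, 35.8% were called, 14.7% higher and 21.1% lower at 4 months. With an unequal-variance test per gene the same 2 members rose, where 5.66% of all genes were called higher. The ages did not overlap for 3 of the 8 (Gfra3, S100b and Sox10, each higher at 4 months). Among all genes tested, 20.0% did not overlap and were higher at 4 months. Counted in either direction, 12942 of the 25903 genes tested did not overlap, so 3 of 8 is not a larger share than among all genes. The median log2 fold change of the 8 was 0.30, against -0.14 over all genes tested. In RNA from whole valves, fewer cells of a type and less RNA per cell cannot be told apart, and this holds for every level given here.

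**Figure D1:**
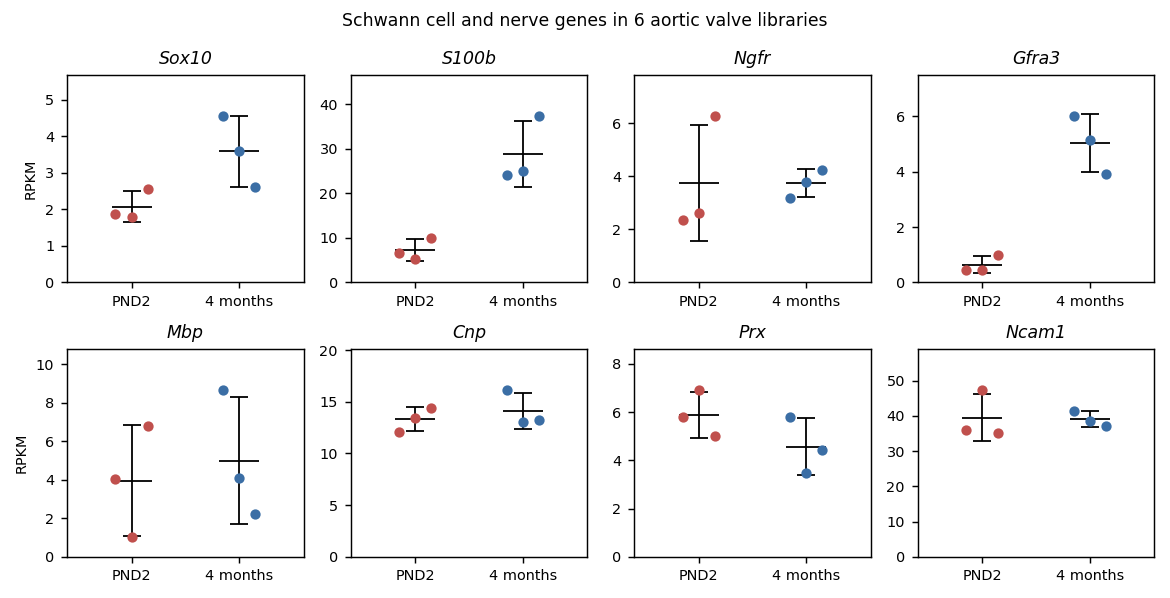
RPKM (linear axes from 0) of the 8 genes in the 3 PND2 libraries (red) and the 3 libraries at 4 months (blue), with the mean and SD of each age in black. Gfra3, S100b and Sox10 show no overlap between the ages, and Mbp spreads over a 6.64-fold range within PND2.

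Sox10 encodes the transcription factor that specifies and maintains the Schwann cell lineage, and lies on chr15:79154913-79164490 (mm10, minus strand). Its RPKM was 1.87, 1.80 and 2.56 at PND2 and 4.55, 3.59 and 2.62 at 4 months. The lowest library at 4 months thus stood just above the highest at PND2. The means were 2.08 ± 0.418 and 3.59 ± 0.963 (SD, n = 3), a ratio of 1.73, and the log2 fold change of 0.74 (SE 0.26) missed the threshold (limma, adjusted p = 0.0627). With each library shifted to a common median the adjusted limma p was 0.0303, with limma voom on the recovered reads 0.0372, and without replicate 3 at 4 months 0.0446. Under every other alternative Sox10 was not called. The adjusted limma p reached 0.173 without replicate 1 at 4 months, and the unequal-variance test gave an adjusted p of 0.152. None of the 4 Sox10 exons passed the test of single exons. Melanocyte genes, the other users of Sox10, summed to 89.5 to 140 RPKM at PND2 and to 63.4 to 87.2 RPKM at 4 months over 12 genes, opposite in direction to Sox10, and their part in its level was not tested.

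S100b encodes a calcium-binding protein of Schwann cells that is also made by adipocytes and chondrocytes, and lies on chr10:76253853-76261159 (plus strand). Its RPKM was 6.57, 5.17 and 10.0 at PND2 and 24.2, 25.0 and 37.3 at 4 months. Every library at 4 months exceeded every PND2 library by more than the range within either age. The mean rose from 7.25 ± 2.5 to 28.8 ± 7.3 (SD, n = 3), 3.98-fold, with a log2 fold change of 2.00 (SE 0.27, limma adjusted p = 0.00162). All 3 of its exons were called higher, against 8.96% of exons tested. The first exon went from 4.65 ± 0.71 to 28.8 ± 7.65 RPKM (SD, n = 3).

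Cell types that share S100b differed between the ages as well. The 13 adipocyte genes summed to 375 to 600 RPKM at PND2 and 759 to 2403 RPKM at 4 months, highest in replicate 2. The 11 cartilage genes summed to 131 to 236 RPKM at PND2 and 319 to 1087 RPKM at 4 months, highest in replicate 3, the library in which S100b was also highest. That sum was carried by Comp, which went from 10.6 ± 3.26 to 377 ± 239 RPKM, and Chad, from 4.43 ± 2.65 to 231 ± 131 RPKM (SD, n = 3), whereas 4 of the 9 cartilage genes tested fell and the median log2 fold change was -0.48. The part of these cell types in the rise of S100b was not tested.

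Gfra3 encodes the receptor that binds artemin, a GDNF family ligand, and hands the signal to the receptor tyrosine kinase Ret. It lies on chr18:34689903-34720387 (minus strand). Its RPKM was 0.451, 0.461 and 0.995 at PND2 and 6.01, 5.14 and 3.92 at 4 months. The ages were well apart, the lowest adult library standing above the highest PND2 library. The mean rose from 0.635 ± 0.312 to 5.02 ± 1.05 (SD, n = 3), 7.91-fold, with a log2 fold change of 2.86 (SE 0.34, limma adjusted p = 9.4e-04). All 8 of its exons were called higher and none overlapped between the ages. The exon with the most reads, the last one, held 17, 14 and 19 reads at PND2 and 161, 80 and 94 reads at 4 months.

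The ligand of Gfra3 moved in the same direction. Artn (artemin) measured 0.064, 0.313 and 0.512 RPKM at PND2 and 4.16, 1.45 and 2.53 RPKM at 4 months, a log2 fold change of 2.90 (SE 0.57, limma adjusted p = 0.00754). Ret, which both would need for signalling, stood at 0.853 ± 0.169 RPKM at PND2 and 0.844 ± 0.169 RPKM at 4 months (SD, n = 3), with a log2 fold change of -0.01 (SE 0.28, adjusted p = 0.975 by limma).

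Of the 8 other genes of the GDNF family, 4 rose and 1 fell, with a median log2 fold change of 0.78. Without replicate 3 at 4 months 3 were called, with no filter on low values 1, and with the unequal-variance test 0 were called. Nrtn (neurturin) rose from 10.4 ± 2.22 to 20.2 ± 3.73 RPKM. Gfra4, the persephin receptor, rose from 2.5 ± 1.24 to 10.5 ± 4.38 RPKM, while Pspn, its ligand, fell from 1.62 ± 0.139 to 0.379 ± 0.174 RPKM. Gfra1, the GDNF receptor, rose from 2.55 ± 0.741 to 6.53 ± 2.28 RPKM. Gdnf itself measured 1.07 ± 0.547 and 0.741 ± 0.211 RPKM (SD, n = 3 in each case) and did not pass the test.

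**Figure D2:**
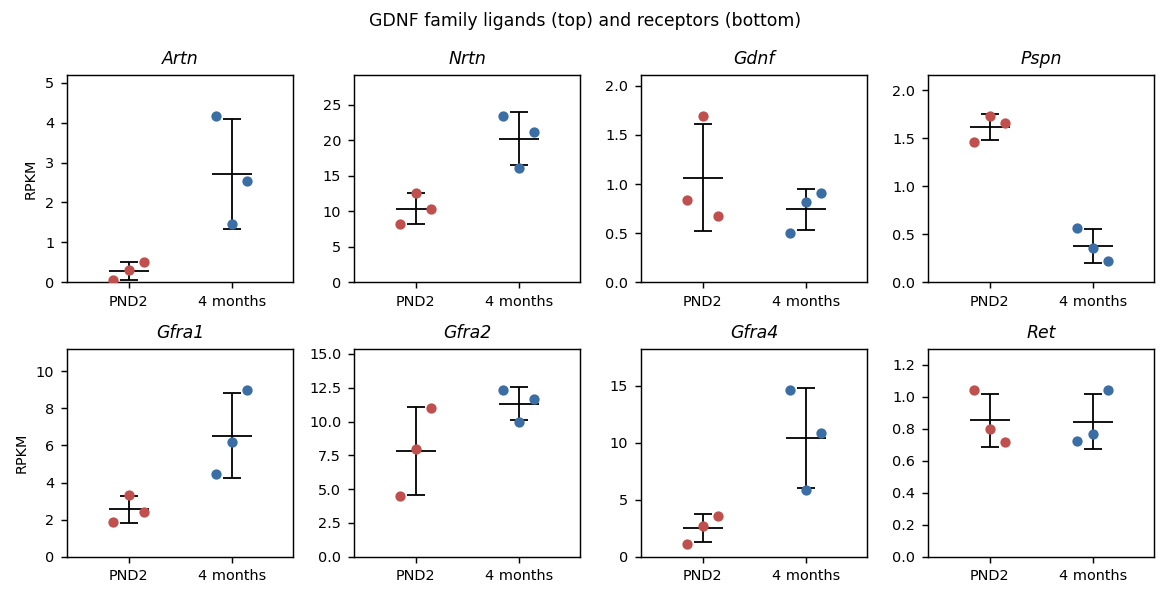
RPKM (linear axes from 0) of the 4 GDNF family ligands in the upper row and of 3 receptors and Ret in the lower row, in the 3 libraries of each age with the mean and SD in black. Artn, Nrtn, Gfra1 and Gfra4 are higher and Pspn lower at 4 months, while Ret overlaps.

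Ngfr encodes the p75 neurotrophin receptor, found on immature and non-myelinating Schwann cells and on some fibroblasts, and lies on chr11:95568818-95587735 (minus strand). Its RPKM was 2.35, 2.61 and 6.27 at PND2 and 3.20, 3.80 and 4.23 at 4 months. Replicate 3 at PND2 was the highest of all 6 libraries and the other PND2 libraries were the lowest, so the ages overlapped. The log2 fold change was 0.13 (SE 0.37, limma adjusted p = 0.811), with a 95% interval from -0.73 to 0.99. Without replicate 1 at PND2 the log2 fold change was -0.12, and without replicate 2 it was -0.05.

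Bdnf and Ntf3, neurotrophins that p75 can bind, were higher at 4 months and Ntf5 was lower. Over the list of 13 neurotrophin genes and receptors, 6 rose and 3 fell, with a median log2 fold change of 0.57. Without replicate 2 at PND2 5 were called, and 1 with the unequal-variance test. Among those that rose, Ntf3 went from 16.5 ± 2.69 to 34.4 ± 14.0 RPKM and Bdnf from 2.12 ± 0.308 to 4.06 ± 0.833 RPKM (SD, n = 3). Ntrk3 and Ntrk2, receptors of these ligands, and Sort1 also rose. Maged1 and Ngfrap1, whose products bind p75 inside the cell, and Ntf5 (neurotrophin 4) fell. Ngfrap1 dropped from 186 ± 19.2 to 69.3 ± 13.4 RPKM (SD, n = 3).

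Mbp, Cnp and Prx belong to the myelin sheath, and none of the 3 was called at the level of the gene. The exons of Mbp and Cnp did not share the level of the gene. Mbp encodes myelin basic protein, which compacts the sheath, and lies on chr18:82475146-82585637 (plus strand). Its RPKM was 4.05, 1.02 and 6.79 at PND2 and 8.65, 4.09 and 2.23 at 4 months. The libraries of 1 age differed by up to 6.64-fold at PND2 and 3.88-fold at 4 months, and the ages overlapped. The log2 fold change was 0.47 (SE 0.72, limma adjusted p = 0.653), with a 95% interval from -1.23 to 2.17. It was -0.28 without replicate 2 at PND2 and -0.02 without replicate 1 at 4 months.

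Mbp has an upstream start, used for the golli transcripts of many cell types, and a downstream start used for the classic myelin protein. The last exon measured 12.3, 0.411 and 22.2 RPKM at PND2 and 26.8, 8.87 and 4.51 RPKM at 4 months, that is 727, 19 and 985 reads against 1515, 320 and 198 reads. The 3 exons upstream of the classic start measured only 1.68, 0.743 and 1.03 RPKM at PND2 and 2.02, 1.8 and 1.74 RPKM at 4 months. A long exon of 4384 bases, which ends 1 annotated transcript and contains the classic first exon, held 539, 233 and 568 reads at PND2 and 916, 429 and 303 reads at 4 months, and so held more reads than the last exon in replicate 2 at PND2 and in replicates 2 and 3 at 4 months. The spread between libraries of 1 age was wide in the exons after the classic start, where the 3 downstream coding exons ranged from 0 to 12.8 RPKM at PND2 and from 1.62 to 31.9 RPKM at 4 months. Of these, an exon of 36 bases was called higher on few reads, 0, 0 and 1 at PND2 and 51, 8 and 2 at 4 months (adjusted p = 0.0196, limma over all exons tested).

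Some genes of neurons and oligodendrocytes had their low values in the same libraries as Mbp, and others on the same lists did not. Snap25, a synaptic protein, measured 3.93, 0.15 and 5.19 RPKM at PND2 and 4.23, 1.5 and 0.0814 RPKM at 4 months. Stmn3, a neuronal microtubule regulator, measured 7.11, 0 and 9.18 RPKM at PND2 and 11.0, 3.88 and 0.426 RPKM at 4 months. Both were lowest in replicate 2 at PND2 and in replicate 3 at 4 months, as was Mbp. Mog, a myelin protein of oligodendrocytes in the central nervous system and not of Schwann cells, measured 0.662, 0.0577 and 0.501 RPKM at PND2 and 0.377, 0.0739 and 0.0203 RPKM at 4 months. Nefl, Elavl3 and Mobp were lowest in the same 2 libraries, and these 6 genes were named after their values were seen. Tubb3 and Myrf, from the same lists, were lowest in neither library. Tubb3 measured 5.79, 9.4 and 8.38 RPKM at PND2 and 9.17, 7.35 and 7.99 RPKM at 4 months. Myrf measured 12.4, 17.9 and 15.1 RPKM at PND2 and 14.7, 9.5 and 11.2 RPKM at 4 months. The part of neuronal or oligodendrocyte RNA in the level of Mbp was not tested.

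**Figure D3:**
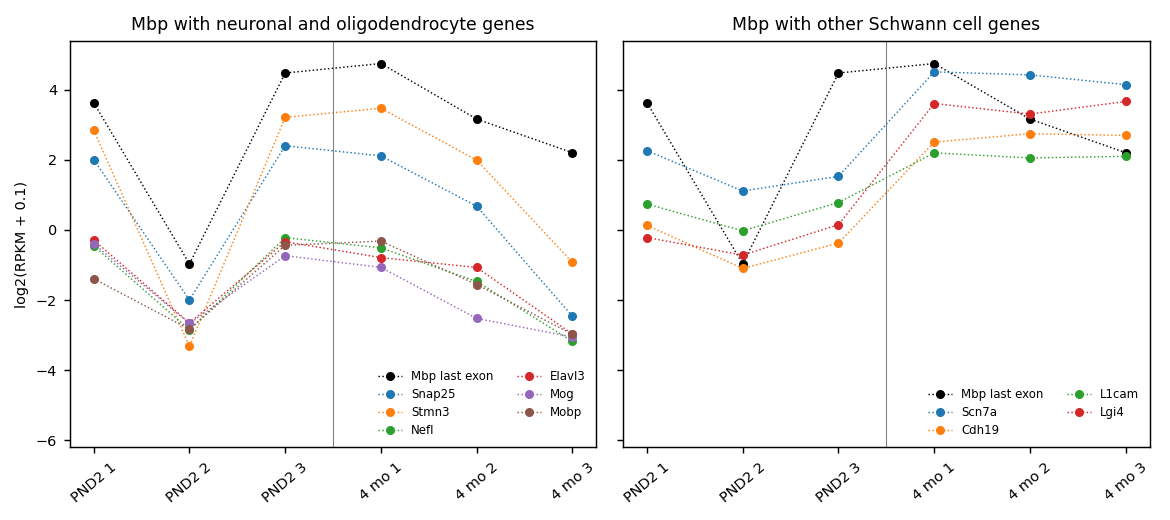
log2(RPKM + 0.1) of the last exon of Mbp (black) in each of the 6 libraries, beside 6 neuronal and oligodendrocyte genes on the left and 4 Schwann cell genes on the right; dotted lines join the values of 1 gene and the libraries have no order within an age. Mbp and the genes on the left are low in replicate 2 at PND2 and replicate 3 at 4 months, whereas the genes on the right differ between the ages.

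Cnp encodes an enzyme of the cytoplasmic channels of myelin-forming cells and is also made at lower levels elsewhere. It lies on chr11:100574904-100591729 (plus strand). Its RPKM was 12.1, 13.4 and 14.4 at PND2 and 16.1, 13.0 and 13.2 at 4 months, with a log2 fold change of 0.08 (SE 0.13, limma adjusted p = 0.676). Over the 4 exons of its coding transcript, the RPKM was 8.17, 8.79 and 9.76 at PND2 and 18.0, 13.7 and 15.7 at 4 months. Every adult library exceeded every PND2 library over these exons, 8.91 ± 0.8 against 15.8 ± 2.12 (SD, n = 3), a ratio of 1.77. With this value in place of the gene's, an alternative chosen after seeing the data, the log2 fold change was 0.81 (SE 0.14, limma adjusted p = 0.00424).

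A single exon far downstream carried a large share of the Cnp reads. The last exon of the transcript Cnp-202, chr11:100591267-100591729, measured 53.4, 60.2 and 63.1 RPKM at PND2 and 34.2, 31.7 and 23.3 RPKM at 4 months, and was called lower at a ratio of 0.505 (limma over all exons tested, adjusted p = 0.00838). It held 55.9% to 57.1% of the gene's reads at PND2 and 22.4% to 31.0% at 4 months. This exon shares 154 of its 463 bases with an exon of Dnajc7 on the other strand. Dnajc7, which encodes a co-chaperone, fell from 82.1 ± 1.15 to 46.4 ± 4.01 RPKM (SD, n = 3, log2 fold change -0.82, limma adjusted p = 7.7e-04). Whether strand was used in counting is not given in the sources used here, so reads of the 2 genes in the shared bases cannot be told apart. The ratio of this exon to the coding exons was 6.62 ± 0.207 at PND2 and 1.9 ± 0.412 at 4 months (SD, n = 3), an exact 2-sided permutation p of 0.1, the smallest that 3 against 3 libraries can give.

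Prx encodes periaxin, a scaffold protein of the Schwann cell membrane around myelin that endothelial cells also make, and lies on chr7:27499324-27520214 (plus strand). Its RPKM was 5.78, 6.90 and 5.00 at PND2 and 5.81, 3.46 and 4.43 at 4 months. The ages overlapped and the log2 fold change was -0.38 (SE 0.23, limma adjusted p = 0.235), with a 95% interval from -0.91 to 0.15. The 4 annotated upstream exons held 17, 3 and 11 reads at PND2 and 5, 1 and 2 reads at 4 months, while an internal first exon held 49, 49 and 35 reads and 38, 15 and 21 reads. The internal first exon was lower in every adult library, 4.54 ± 0.742 against 2.65 ± 0.677 RPKM (SD, n = 3), and none of the 8 Prx exons tested was called. Endothelial genes, 8 of 10 called lower, summed to 545 to 766 RPKM at PND2 and 318 to 344 RPKM at 4 months, and their part in the level of Prx was not tested.

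The promoters of S100b, which rose, and of Cnp, whose coding exons were higher at 4 months, are shown because Sox and Egr factors drive many Schwann cell genes. Each runs from 250 bases before to 50 bases after the annotated start (RefSeq, GRCm38.p6), 5′ to 3′, at chr10:76253586-76253885 and chr11:100574689-100574988, both on the plus strand. The letters searched on both strands were ACAAAG and AACAAT for Sox factors and GCGTGGG for Egr factors, and matches are in capitals.
S100b promoter: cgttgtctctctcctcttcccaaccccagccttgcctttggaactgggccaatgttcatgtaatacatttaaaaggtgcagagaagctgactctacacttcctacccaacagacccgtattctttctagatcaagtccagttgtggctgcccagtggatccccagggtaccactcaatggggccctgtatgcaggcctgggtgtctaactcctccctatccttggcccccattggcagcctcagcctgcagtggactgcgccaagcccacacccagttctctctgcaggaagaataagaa
Cnp promoter: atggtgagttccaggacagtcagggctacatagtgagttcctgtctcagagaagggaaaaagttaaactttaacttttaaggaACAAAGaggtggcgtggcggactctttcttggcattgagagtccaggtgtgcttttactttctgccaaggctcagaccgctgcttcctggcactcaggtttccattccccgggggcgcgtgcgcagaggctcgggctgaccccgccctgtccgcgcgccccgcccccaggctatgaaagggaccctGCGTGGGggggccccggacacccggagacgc
The Cnp window held 1 match to ACAAAG and 1 to GCGTGGG, and the S100b window held none of the 3. Among all 32851 promoters of this length, 18.7% held ACAAAG, 10.7% held AACAAT and 5.04% held GCGTGGG. Of the other members with a window in the table and searched here, Prx held GCGTGGG on the reverse strand and Ngfr held none.

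Ncam1 encodes the neural cell adhesion molecule, present on non-myelinating Schwann cells and axons but also on heart muscle and mesenchymal cells, and lies on chr9:49502136-49798925 (minus strand). It was the most abundant of the 8 genes, at 36.1, 47.2 and 35.2 RPKM at PND2 and 41.5, 38.5 and 37.0 RPKM at 4 months. The log2 fold change was -0.01 (SE 0.13, limma adjusted p = 0.975), with a 95% interval from -0.31 to 0.30, and 0.12 with each library shifted to a common median. The 12 cardiomyocyte genes summed to 13497 to 15098 RPKM at PND2 and 7263 to 12040 RPKM at 4 months, and their part in the level of Ncam1 was not tested.

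The exons of Ncam1 did not share the level of the gene. The transcript Ncam1-201 ends in an exon of its own, which codes for the end of the short form held in the membrane by a lipid anchor. Ncam1-204 instead continues into exons for a membrane-spanning segment and a cytoplasmic tail. A further small exon of Ncam1-205, known as VASE, can be inserted into the immunoglobulin-like part. The coding bases of these 3 exons (GRCm38, minus strand, read 5′ to 3′ along the gene) are given because reads in them separate the forms, at chr9:49517509-49517582, chr9:49509705-49509912 and chr9:49550540-49550569.
Ncam1-201 end: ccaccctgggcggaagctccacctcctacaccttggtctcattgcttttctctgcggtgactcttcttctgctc
Ncam1-204 membrane-spanning exon: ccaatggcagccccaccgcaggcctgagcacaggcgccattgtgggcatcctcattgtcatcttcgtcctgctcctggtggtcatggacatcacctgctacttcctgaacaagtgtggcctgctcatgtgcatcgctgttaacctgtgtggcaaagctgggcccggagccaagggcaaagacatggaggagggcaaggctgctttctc
Ncam1-205 VASE exon: gcatcgtggactcgaccagagaagcaagag
The terminal exon of Ncam1-201 measured 29.4, 25.8 and 23.2 RPKM at PND2 and 8.6, 13.2 and 11.0 RPKM at 4 months. It was lower in every adult library, 26.1 ± 3.13 against 10.9 ± 2.31 RPKM (SD, n = 3), with a log2 fold change of -1.26 (SE 0.23, adjusted p = 0.00725, limma over all exons tested, an alternative chosen after seeing the data).

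The membrane-spanning and cytoplasmic exons of Ncam1-204 measured 29.9, 53.9 and 40.3 RPKM at PND2 and 63.7, 51.4 and 45.2 RPKM at 4 months, and the ages overlapped. The ratio of the Ncam1-201 end to these exons was 0.984, 0.478 and 0.576 at PND2 and 0.135, 0.257 and 0.243 at 4 months. No adult ratio reached the lowest PND2 ratio, with an exact 2-sided permutation p of 0.1, the smallest this design allows. The exon for the longest cytoplasmic tail, found only in Ncam1-205 and typical of neurons, was low at both ages, 1.93 ± 0.347 and 1.15 ± 0.482 RPKM (SD, n = 3). The VASE exon held 23, 5 and 9 reads at PND2 and 12, 22 and 3 reads at 4 months, and a difference was not detectable at this depth.

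The exons shared by the forms also differed from the gene level. Over 9 exons of the extracellular part, Ncam1 measured 68.0, 97.5 and 70.7 RPKM at PND2 and 55.0, 51.4 and 48.3 RPKM at 4 months, lower in every adult library. The long last exon of Ncam1-204 measured 36.3, 42.9 and 32.4 RPKM at PND2 and 55.4, 50.4 and 50.6 RPKM at 4 months, higher in every adult library, with a log2 fold change of 0.50 (SE 0.16) that missed the threshold (adjusted p = 0.0605, limma over all exons tested). Of 30 Ncam1 exons tested, 5 were called lower and 0 higher, a share close to the 14.2% of all exons called lower. The exon at the 3′ end stood 0.99 on the log2 scale above the gene's median exon change, where the median over 11883 protein-coding genes was 0.10 and 2.79% of them were at or above the value of Ncam1. The part of that general shift towards the 3′ end in the exon pattern of Ncam1 was not tested. An overlapping gene on the other strand, Gm11149, touches 3 of the 34 Ncam1 exons. Gm11149 fell from 16.4 ± 3.33 to 10.5 ± 1.22 RPKM (SD, n = 3, log2 fold change -0.63, limma adjusted p = 0.0263). Whether counting used strand is not given, so reads of both genes in shared bases cannot be told apart.

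**Figure D4:**
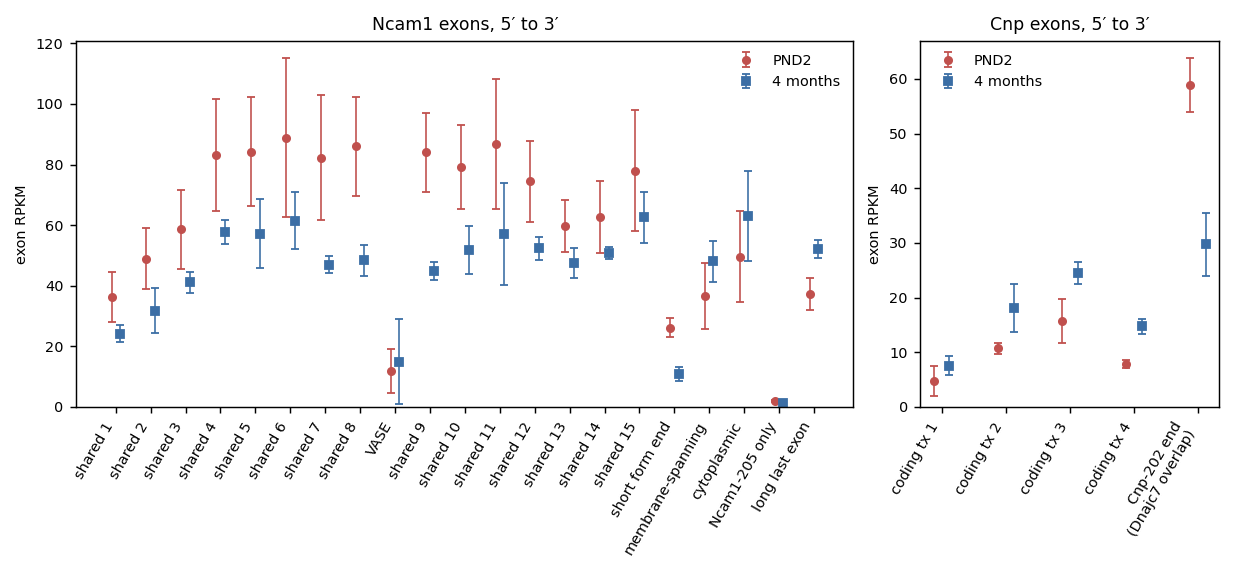
Exon RPKM (linear axes from 0, mean with SD of 3 libraries) at PND2 (red circles) and 4 months (blue squares) for exons of Ncam1 and Cnp in 5′ to 3′ order, with no genomic scale; coding tx marks the 4 exons of the Cnp coding transcript, and the Ncam1-201 end is labelled short form end. The Ncam1-201 end falls from 26.1 to 10.9 while the long last exon goes from 37.2 to 52.2, and the Cnp exon that overlaps Dnajc7 falls from 58.9 to 29.7.

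The other genes of the Schwann cell lineage were taken from lists of known markers. Among 18 genes of non-myelinating and immature Schwann cells, 8 rose and 3 fell, with a median log2 fold change of 0.52. Without replicate 2 at PND2, or without any 1 of the libraries at 4 months, 6 or 7 were called, and 2 with the unequal-variance test. Scn7a, a sodium channel of non-myelinating Schwann cells, measured 4.7, 2.06 and 2.79 RPKM at PND2 and 22.7, 21.4 and 17.6 RPKM at 4 months, a log2 fold change of 2.73 (SE 0.29, limma adjusted p = 5.7e-04). Cdh19, a cadherin of the Schwann cell lineage, rose from 0.678 ± 0.314 to 6.2 ± 0.541 RPKM (SD, n = 3), 9.15-fold. L1cam, an adhesion molecule of unmyelinated axons and their Schwann cells, rose 3.13-fold to 4.25 ± 0.223 RPKM (SD, n = 3). Matn2, Kcna1, Col28a1, Sostdc1 and Cadm2 also rose. Cdh2 (N-cadherin), Gap43 and Dhh, from the same list, fell, Cdh2 from 76.5 ± 6.78 to 22.9 ± 10.3 RPKM (SD, n = 3). Mean Sox10 was 2.08 RPKM at PND2 and 3.59 RPKM at 4 months, and levels of different genes do not show which cells made Cdh2. Cardiomyocyte and endothelial genes also summed to less at 4 months, and the part of other cell types in these falls was not tested. The fall of Gap43 was at the threshold (limma adjusted p = 0.0496).

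Of the 18 myelin sheath genes, 15 were tested, 4 rose and none fell, with a median log2 fold change of 0.65. Over all genes tested, 35.8% were called, and 14.7% were higher at 4 months. With the unequal-variance test 2 of the myelin sheath genes were called. Pmp22, a myelin protein that fibroblasts also make, rose from 151 ± 8.46 to 208 ± 18.1 RPKM (SD, n = 3), and Mal, a lipid raft protein, from 2.02 ± 0.609 to 10.3 ± 1.93 RPKM (SD, n = 3). Gldn (gliomedin), which gathers sodium channels at nodes of Ranvier, held 1, 8 and 0 reads at PND2 and 965, 510 and 680 reads at 4 months. Pmp2 was at 0 in every library, and Cldn19 and Gjb1, both defining genes of myelinating Schwann cells, were too low to be tested. Among 15 transcription factors of the lineage, 14 were tested and 4 rose: Jun, Nab1, Nab2 and Zeb2, all of which other cells express too. With the unequal-variance test 3 of this list were called. Jun rose from 48.2 ± 2.15 to 162 ± 17.8 RPKM (SD, n = 3), and Egr2, the driver of myelination, measured 3.77 ± 0.806 and 4.76 ± 0.621 RPKM (SD, n = 3) and did not pass the test.

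Signals between axons and Schwann cells moved in both directions. Among 10 ligand and receptor genes 2 rose and 4 fell, with a median log2 fold change of -0.81. Lgi4, a secreted Schwann cell protein needed for myelination, measured 0.761, 0.508 and 1.01 RPKM at PND2 and 12.1, 9.8 and 12.6 RPKM at 4 months, a log2 fold change of 3.79 (SE 0.26, limma adjusted p = 1.2e-04). Its receptor gene Adam22 did not pass the test, at 1.61 ± 0.126 and 1.47 ± 0.174 RPKM (SD, n = 3). Nrg1 (neuregulin 1), the axonal growth signal that endocardium also makes, measured 6.74, 4.44 and 4.86 RPKM at PND2 and 0.535, 0.819 and 0.526 RPKM at 4 months, a log2 fold change of -2.91 (SE 0.27, limma adjusted p = 3.6e-04). Its receptor subunit Erbb2 fell from 19.4 ± 3.05 to 8.59 ± 0.672 RPKM (SD, n = 3), and Erbb3, the subunit of Schwann cells, was lower in every adult library at 3.87 ± 0.712 against 2.62 ± 0.442 RPKM but did not pass the test (limma adjusted p = 0.0988). Adgrg6 and Dhh also fell, and Gas1, a co-receptor for hedgehog ligands, rose.

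**Figure D5:**
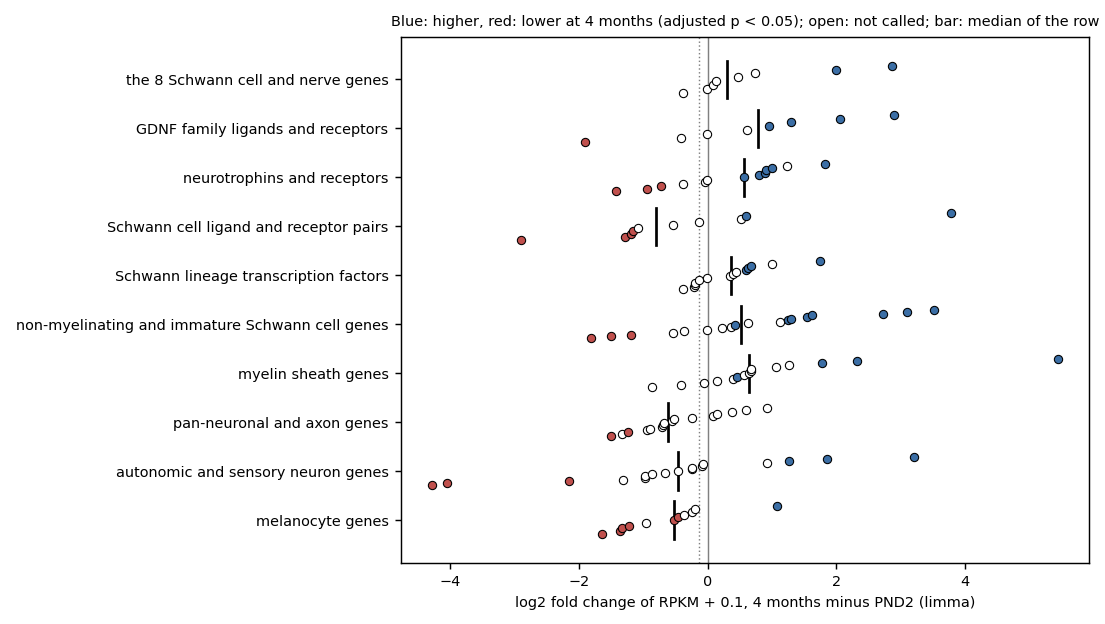
log2 fold change of RPKM + 0.1 (4 months minus PND2, limma) for each tested gene of the 8 members and of 9 lists, 1 point per gene; filled points passed the adjusted threshold (blue higher, red lower at 4 months), open points did not, black bars are row medians and the dotted line is the median of all genes tested, -0.14. Medians run from -0.81 for ligand and receptor pairs to 0.78 for the GDNF family.

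For the nerve fibres themselves, general and subtype genes were counted apart. Of 16 pan-neuronal and axonal genes tested, 0 rose and 2 fell (Gap43 and Stmn2), with a median log2 fold change of -0.61. At an unadjusted p under 0.05 (limma) the count was again 0 higher and 2 lower, by voom likewise, and without replicate 3 at PND2, replicate 2 at 4 months or replicate 3 at 4 months 0 genes were called, and without replicate 1 at PND2 1 was. Of 17 autonomic and sensory neuron genes tested, Slc6a2, Chrnb4 and Chrna3 rose and Ddc, Gal and Slc5a7 fell, with a median of -0.46. Without any 1 of the libraries at 4 months 1 gene was called higher, and in all 2 genes were called with the unequal-variance test and 2 when only genes reaching 1 RPKM in 3 libraries were kept. Slc6a2, the noradrenaline transporter of sympathetic fibres, measured 0.12, 0.0265 and 0.0443 RPKM at PND2 and 0.832, 1.42 and 2.17 RPKM at 4 months, a log2 fold change of 3.21 (SE 0.43, limma adjusted p = 0.00164). Dbh, an enzyme of noradrenaline synthesis named after its values were seen, measured 0.905 ± 0.703 and 0.818 ± 0.508 RPKM (SD, n = 3) and did not pass the test. Th and Chat, made in nerve cell bodies, were too low to be tested.

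Markers of other cells differed between the ages in many cases, with no test of their part in the results above. Of the oligodendrocyte genes 6 were tested and 1 rose (Aspa), and Opalin was at 0 in every library. Of 11 melanocyte genes tested, Slc24a5, Pmel, Tyrp1, Mitf, Kit and Slc45a2 fell and Gpnmb rose. These 7 calls became 3 without replicate 3 at PND2, 4 without replicate 3 at 4 months and 1 with no filter on low values. Of 13 adipocyte genes 11 rose, among them Cfd, Lpl, Pnpla2, Adipoq, Thrsp, Pck1, Cidec and Lipe. Of 9 cartilage genes tested, Comp and Chad rose and Acan, Hapln1, Col9a1 and Col11a1 fell. Of 12 cardiomyocyte genes Mb rose and Myl2, Myh7, Tnnt2, Actn2 and Ttn fell. Among macrophage genes 8 of 10 rose (Lyz2, C1qa, C1qb, C1qc, Csf1r, Cd68, Adgre1 and Cd163), and among T cell genes Cd3d, Cd3g, Cd2 and Cd3e rose and Trac and Lck fell. The endothelial genes that fell were Egfl7, Pecam1, Cdh5, Tie1, Tek, Emcn, Kdr and Vwf. Of 10 fibroblast genes Dcn, Dpt and Lum rose and Col3a1, Col1a1, Postn, Col1a2 and Tcf21 fell. With the unequal-variance test 0 melanocyte genes, 0 cardiomyocyte genes, 1 T cell gene and 3 fibroblast genes were called. By the same test 4 cartilage, 4 endothelial, 5 adipocyte and 5 macrophage genes were called. The share of reads from mitochondrial genes ran from 5.44% to 9.6% and overlapped between the ages.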

How the data were processed

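Aortic valve RNA of 3 PND2 and 3 adult pools was aligned by the authors to mm10 with TopHat2 2.1.0, per the labels, and summarised per gene and per exon. The deposited values are RPKM, scaled by the authors to each library's total. Multiplied by the gene's exonic length and the library total, 100% of the values came out as whole reads (tolerance 0.001), which gave the totals.

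The 25903 genes that reached an RPKM of 0.1 in 3 or more libraries were tested on log2(RPKM + 0.1) with limma 3.58.1 (R 4.3.3, eBayes with trend) and Benjamini-Hochberg adjustment, and the 299098 exons that reached 1 RPKM in 3 or more libraries in the same way, which was added after seeing the data. The added 0.1 shrinks the fold changes of low genes. The scripts were tested on simulated data. Alternatives were other pseudocounts and filters, no trend, an unequal-variance test per gene, median scaling, voom on the recovered reads, a replicate block and leaving out each library. Single ratios were compared with an exact permutation test. The study describes replicates as pools, and nothing was found that ties equal replicate numbers together.

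The members and lists were chosen with earlier results of these data known. Named genes were the members, the genes of each list called by the test (at most 8, by mean RPKM) and defining markers at or near 0. Other genes were named after their values were seen. The sources used here do not say whether counting used strand. Some genes of the lists are counted but not reported here by name.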

Additional observations from a re-analysis of the deposited data

How the results depend on the processing

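Gfra3 and S100b stayed called and higher at 4 months under every alternative run. The count of called members was 2 with most alternatives and 3 with median scaling, with voom, without replicate 3 at 4 months (Sox10 in each) and with the coding exons in place of the Cnp gene. The log2 fold change turned for Mbp (-0.28 without PND2 replicate 2 and -0.02 without replicate 1 at 4 months, in a leave-one-out range of -0.28 to 1.03), Ncam1 (0.12 with median scaling, and 0.13, 0.00 and 0.03 without PND2 replicate 2 and replicates 2 and 3 at 4 months, range -0.08 to 0.13), Ngfr (-0.12 and -0.05 without PND2 replicates 1 and 2, range -0.12 to 0.57) and Cnp (-0.02 without replicate 1 at 4 months, range -0.02 to 0.14). Over all genes, 9273 were called (3810 higher, 5463 lower), 8730 with median scaling (4601 higher, 4129 lower) and 3408 with the unequal-variance test. Of 198 genes on the other lists, 106 were called, 67 with no filter on low values and 36 with the unequal-variance test. The cause of these differences was not tested. The replicate block left 2 members and 7167 genes called. The deviations of same-numbered libraries from their age means correlated at r = 0.0439, -0.0608 and -0.16. With 3 libraries per age, these values cannot show whether the numbers pair the libraries. The 3 libraries per age, each a pool, limit the precision, and nothing says the spread between pools equals that between mice.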
